A study of Mus musculus with 3 samples.

Results

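Cluster 3 of the E14.5 mouse tail is a mesenchyme cluster that the authors defined by unsupervised clustering. Its members were taken as the tail cells that carry code 9 in the cluster row of the deposited counts, which gave 157 cells of 2052 in the tail (7.65%, 6.54–8.89%) and of 15827 in the series. The cluster is numbered here as in the study's list of marker genes, where *Wnt4*, *Twist2* and *Cxcl14* stand under it. The study's table of cell numbers is ordered differently and gives a cluster of this size the number its text uses for muscle. Muscle genes were near 0 in these cells, at a summed 5.76 CPM against 6658 CPM in code 5. The study built tenocytes from mouse embryonic stem cells (mESCs) and set them beside embryonic tail. Single cells were profiled in 3 libraries, 1 of each kind: the tail of E14.5 embryos, the D10 monolayer of mESC-derived tenocytes and D6 embryoid bodies differentiated to paraxial mesoderm (PM). The embryos carried the ScxGFP transgene, a reporter of the tendon transcription factor *Scx*, on a C57BL6 background, and both sexes were used. The cells were freed with trypsin and collagenase and depleted of dead cells. The D10 culture had passed from CHIR, an activator of WNT signaling, and LDN-193189, a BMP receptor inhibitor, to TGFβ1, the hedgehog agonist SAG and FGF2. How many embryos went into the tail library is not given in the sources used here.

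In the embryo, loose mesenchyme lies between the skin epithelium and the tendons, muscles and skeleton that form beneath it. WNT proteins are secreted signals that stabilise β-catenin in receiving cells, where β-catenin joins TCF and LEF factors and turns on genes that include feedback inhibitors such as *Axin2*. In embryonic skin, WNT signals pass between the epithelium and the mesenchyme under it, and *Twist2* is a well-known marker of dermal fibroblast precursors.

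Levels are given in CPM, the unique molecular identifiers (UMIs) of a gene per 1000000 UMIs of all genes, both summed over the cells of a group. The brackets hold exact 95% intervals, Poisson for a level, binomial conditional on the summed count for a ratio and Clopper-Pearson for a share. They cover counting error within 1 library and say nothing of the spread between embryos. Cells of 1 library are not replicates, and the clusters were made from the same counts, so no p-values were computed and every difference between clusters is a description. The library held 31343741 UMIs. The 157 cells held 2431788, with 1836 to 48291 per cell, a median of 13772 and a median of 4682 genes, against a median of 13463 UMIs in the 685 cells of the tendon cluster (code 1), the first group of comparison. The tail shared 4 cell barcodes with the culture and 3 with D6 PM, and 1 of the 157 cells was among them.

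The label was checked first against markers of the other cells a tail can hold, and the cluster did not prove uniform. The summed UMIs of 10 macrophage genes (*Ptprc*, *Csf1r*, *C1qa*, *C1qb*, *C1qc*, *Adgre1*, *Tyrobp*, *Fcer1g*, *Cx3cr1* and *Mrc1*) were 0 in 121 cells and 1 in 2 cells. They were 17 to 610, with a median of 119.5, in the remaining 34 cells (21.7%, 15.5–28.9%). No cell had between 2 and 16. Of the 1895 other tail cells, 13 (0.686%) had 2 or more such UMIs, and 2 of these had 17 or more.

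The 34 cells were set apart by the macrophage list itself, so its levels describe the split and support nothing further. Their summed level of the list was 7058 CPM (6876–7243), against 1.23 CPM in the other 123 cells, where 8 of the 10 genes had 0 UMIs, and 3.46 CPM in the tendon cluster. *C1qb*, a subunit of the complement component that macrophages secrete, was at 946 CPM (880–1015) in the 34 cells and at 0 UMIs in the 123. Collagen genes, which the split did not use, were low in most of the 34. Among the 34, 23 cells had 0 to 2 UMIs of the collagen genes *Col1a1*, *Col1a2* and *Col3a1* together, 2 cells had 8 to 10, and 9 cells had 34 to 153. Each of the 123 cells had 23 or more collagen UMIs, with a median of 102 and a highest value of 548.

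The 9 cells with both immune and collagen UMIs had a median of 31983 UMIs in all, against 22680 in the 23 cells with 0 to 2 collagen UMIs. Of the 187 *Scx* UMIs in the 34 cells, 178 came from 2 cells, with 118 and 60. Whether these cells are doublets was not settled. Scrublet, a doublet caller, called 0 cells of the cluster and 9 of the tail (0.439%), and its highest score in the cluster was 0.257, under the lowest score it called (0.420). Its median score was 0.103 in the 34 cells and 0.0192 in the 123.

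**Figure D1:**
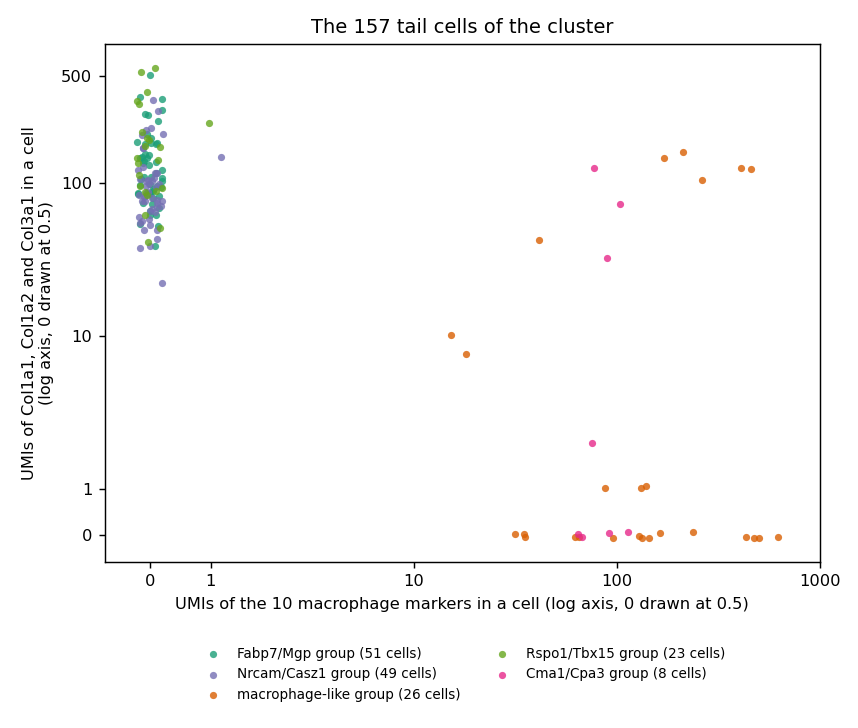
Each point is 1 of the 157 cells of cluster 3 in the E14.5 tail, with the summed UMIs of 10 macrophage genes on the x axis and of *Col1a1*, *Col1a2* and *Col3a1* on the y axis, both log axes with 0 drawn at 0.5 and points shifted slightly so that they do not hide each other. The 123 cells at 0 or 1 macrophage UMI all had 23 or more collagen UMIs, and the 34 cells at 17 or more spread from 0 to 153 collagen UMIs.

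The name mesenchyme held for the 123 cells and not for the 34 as a whole. The cluster is therefore described below mainly by its 123 collagen-expressing cells, 5.99% of the tail (5.01–7.11%), with the values of all 157 cells beside the main results. Markers of most other cell types were low in the 123 cells. The summed level of 8 epidermis genes was 45.0 CPM in them, 37.3 CPM in the tendon cluster and 10705 CPM in the skin epithelium cluster (code 8). *Krt14*, a keratin of basal epidermis, was at 12.3 CPM, against 2446 CPM in skin epithelium. Endothelium genes summed to 28.3 CPM against 7871 CPM in the endothelium cluster, cartilage genes to 133 CPM against 10565 CPM in the cartilage cluster, and muscle genes to 4.93 CPM. Erythroid genes summed to 245 CPM, against 1952 CPM in the tendon cluster. Their level in the median cell was 253 CPM in the 123 cells and 231 CPM in tendon, whose highest cell was at 274536 CPM. Neuron genes summed to 30.2 CPM. Mural cell genes summed to 259.8 CPM, against 512 CPM in tendon. The Schwann and neural crest genes were above tendon, at 77.0 CPM (64.1–91.7) against 21.3 CPM, 51.1 CPM of it from *Fabp7*. Of these genes 0 were detected in 10% or more of the 123 cells. The bone genes were also above tendon, at 66.5 against 27.1 CPM, 64.7 CPM of it from *Runx2*. Of the 10 genes listed as dermal fibroblast markers, 9 were tested and 7 were at least 2-fold higher in the 123 cells than over the other tail cells, with *Ebf1* lower, beside 5.59% higher and 8.73% lower of all tested genes. Over tendon 5 of the 9 were higher, *Twist2*, *Crabp1*, *Lum*, *Lef1* and *Cxcl14*, and 1 lower, with a median ratio of 2.36, beside 3.94% and 7.32% of all tested genes. With the 34 cells kept in, 4 of 9 were higher than over the other tail cells, beside 7.66% of all tested genes, and 3 of 9 higher than in tendon, with a median of 1.65, beside 7.85%. *Twist2* and *Cxcl14* are among the markers given for the cluster and are high by that choice. The summed level of the list was 9606 CPM in the 123 cells, 1047 CPM in the 34 and 6502 CPM in the tendon cluster, of which *Col3a1* made up 3338 CPM in the 123 cells and 3557 CPM in tendon.

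The 3 markers given for the cluster were all present in the 123 cells and mostly absent from the 34. *Wnt4*, a secreted WNT ligand, was at 827 CPM (783–872) in the 123 cells, 166 CPM (139–196) in the 34 and 59.1 CPM (54.4–64.0) in the tendon cluster. In single cells of the 123 it ranged from 0 to 3450 CPM with a median of 661, while the median cell of the 34 and of the tendon cluster had 0. *Twist2*, a bHLH transcription factor, was at 690 CPM (650–731), 80.5 CPM and 122 CPM in the same order, and ranged from 0 to 2067 CPM over the 123 cells, with a median of 685. Both genes were thus spread over most of the 123 cells and not carried by a few. *Cxcl14*, a chemokine made by many epithelia and fibroblasts, was at 1955 CPM (1888–2024), 161 CPM and 443 CPM, and ranged from 0 to 5761 CPM with a median of 1864. The level of each marker in the 123 cells lay above the tendon level by more than counting error, 14-fold (12.7–15.4) for *Wnt4*, 5.66-fold (5.22–6.15) for *Twist2* and 4.42-fold (4.22–4.62) for *Cxcl14*. The ratios of all 157 cells were 10.3 (9.35–11.3), 4.0 (3.69–4.34) and 3.07 (2.93–3.21).

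To compare shares of cells at equal depth, all cells were reduced by random draws to 3000 UMIs each, which left out 2 of the 123 cells and 7 of the 685 tendon cells. *Wnt4* was then detected in 81.0% of the 123 cells and 8.85% of tendon cells, *Twist2* in 81.8% and 22.3%, and *Cxcl14* in 92.6% and 36.3%. Erythroid cells, which should lack all 3 genes, gave a background of 0.8%, 0% and 2.4%. A count of 0 in the 125 erythroid cells kept allows a share of up to 2.4%, here and below. Without thinning the shares were 92.7%, 99.2% and 97.6% in the 123 cells, at a median of 12910 UMIs, and 2.34%, 0.781% and 5.47% in erythroid cells, at a median of 8391.5. All 3 genes thus marked the large majority of the 123 cells at matched depth.

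Of the 3 markers, *Twist2* stood furthest above every other tail cluster. Its next highest level was 170 CPM in the proliferating tendon cluster, which put the 123 cells 4.07-fold above it. *Wnt4* was at 735 CPM in skin epithelium and 750 CPM in the second cluster with skin markers (code 3), so that the 123 cells were 1.10-fold above the highest other cluster. *Cxcl14* was higher in these 2 clusters, at 2603 and 3482 CPM, than in the 123 cells. *Twist2* was at 6.88 CPM in skin epithelium and 14.2 CPM in the second cluster with skin markers, so that *Wnt4* and *Cxcl14* were shared with skin cells and *Twist2* was not.

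**Figure D2:**
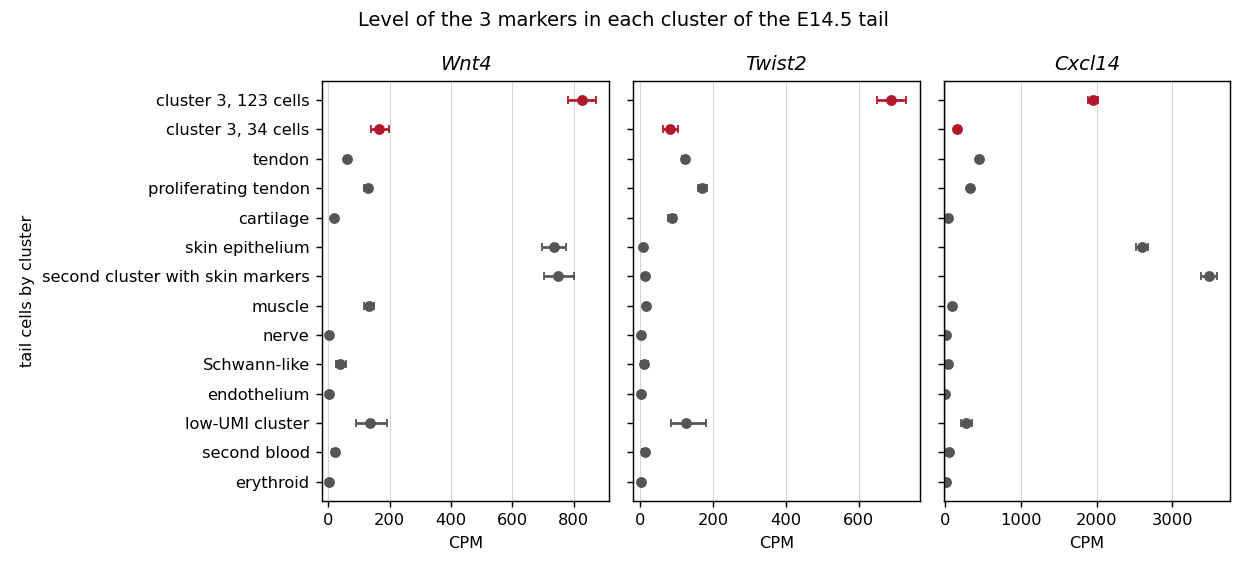
Levels of *Wnt4*, *Twist2* and *Cxcl14* in CPM on the x axes, with exact Poisson intervals, for each cluster of the E14.5 tail on the y axis, with cluster 3 divided into its 123 and 34 cells in red. *Twist2* is highest in the 123 cells at 690 CPM, *Wnt4* is near 750 CPM in the clusters with skin markers as well, and *Cxcl14* is highest in those clusters.

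Across all genes, fewer differed from tendon once the immune cells were left out. A gene was tested if 10% or more of the cells in either group had a UMI of it, and was counted as different from a 2-fold ratio of levels. Over all 157 cells, 871 of 11091 genes were at least 2-fold higher than in the tendon cluster (7.85%) and 903 were at least 2-fold lower (8.14%). In the 123 cells, 419 of 10644 were higher (3.94%) and 779 lower (7.32%). The median ratio over the tested genes was 0.958 and 0.970. A gene seen in 1 group alone passes the filter by being high there, so the counts of the gene lists below describe their measured members and support nothing further. Against all other tail cells, 849 of 11087 genes were higher in the 157 cells (7.66%) and 827 lower (7.46%), and in the 123 cells 599 of 10715 were higher (5.59%) and 935 lower (8.73%). The 25 genes with the highest ratio of the 157 cells over tendon were all immune genes, led by *Ms4a6c*, *Cma1*, *C1qa* and *C1qb*, so the leading genes are given for the 123 cells.

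The genes with the highest ratios in the 123 cells over tendon were expressed by few tendon cells. *Calb1*, a calcium-binding protein, was at 262 CPM against 2.37 CPM, a ratio of 110 (73.2–174). *Casz1*, a zinc-finger transcription factor, was at 251 CPM against 4.15 CPM, a ratio of 60.6 (44.0–85.3). In thinned cells it was detected in 43.8% of the 123 cells, 1.47% of tendon cells and 0% of erythroid cells. *Nrgn*, a calmodulin-binding protein best known from neurons, followed at a ratio of 58.4, and *Nrcam*, a neuronal cell adhesion molecule, at 44.2. The carboxypeptidase relative *Cpxm2*, the arginine synthesis enzyme *Ass1* and the peptide gene *Tac1* had ratios of 23.5, 21.1 and 20.3. The transcription factor *Runx3* and the surface glycoprotein *Thy1* had ratios of 19.7 and 15.7. *Runx3* was also present in the 34 immune cells, at 65.6 CPM against 50.5 CPM in the 123.

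A set of these genes was higher in the 123 cells than in any other tail cluster. *Tac1*, which encodes the precursor of substance P, was at 796 CPM (753–841) and 11.1-fold above the highest other cluster, the proliferating tendon cells at 71.8 CPM. *Cpxm2* was 10.8-fold, *Mmp11* 8.36-fold, *Calb1* 7.98-fold, *Thy1* 6.45-fold and *Fndc1* 5.13-fold above the highest other cluster. *Mmp11*, a stromal metalloproteinase, was at 1541 CPM (1481–1603), against 184 CPM in proliferating tendon and 122 CPM in tendon. It was detected in 79.3% of the 123 cells after thinning, against 24.8% of tendon cells and 0% of erythroid cells. With the 34 cells kept in, *Mmp11* was at 1149 CPM and *Tac1* at 553 CPM. In the group of 23 cells described below, both genes were at least 2-fold lower than in the rest of the 123. *Mmp11* was there under its level in proliferating tendon.

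Most of the WNT response genes, direct or feedback targets of β-catenin signaling, were above tendon. Of 12 genes, 11 were tested, and 9 were at least 2-fold higher and 0 lower in the 123 cells, with a median ratio of 4.03, beside 3.94% and 7.32% of all tested genes and their median of 0.970. The 9 include *Twist2*, which is a marker given for the cluster. With the 34 cells kept in, 8 were higher and 0 lower, with a median of 3.06, beside 7.85% and 8.14% of all tested genes. *Axin2*, the scaffold that limits β-catenin, was at 195 CPM against 48.3 CPM in tendon (4.03, 3.49–4.65). It was detected in 41.3% of the 123 cells, 11.7% of tendon cells and 0% of erythroid cells after thinning. *Nkd1* and *Nkd2*, feedback inhibitors that act on Dishevelled, were at 219 against 54.6 CPM and 126 against 28.8 CPM, ratios of 4.0 and 4.36. The transcription factors *Lef1* and *Tcf7*, which carry the signal to DNA, had ratios of 3.90 and 4.76. *Sp5*, a transcription factor induced by WNT, was at 88.1 CPM against 3.16 CPM (27.9, 18.9–42.3), and *Apcdd1*, a membrane inhibitor of WNT, at 55.4 against 5.33 CPM (10.4). *Twist1* was at 1823 against 795 CPM (2.29). The members that did not reach 2-fold were *Znrf3*, a ligase that removes WNT receptors (1.77), and the cyclin *Ccnd1*, at 203 against 210 CPM (0.965). *Rnf43*, the remaining gene, was not detected in enough cells to be tested. Against all other tail cells the same 9 genes were higher, with a median of 5.13, beside 5.59% higher and 8.73% lower of all tested genes.

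Because *Sp5* had the highest ratio of the list and *Axin2* is its standard reporter, the 250 bases upstream of their annotated starts are shown from RefSeq (GRCm38.p6), 5′ to 3′ on the plus strand, chr2:70474673-70474922 for *Sp5* and chr11:108920099-108920348 for *Axin2*. Capitals mark CTTTGA, the core letters bound by TCF and LEF factors, searched on both strands (TCAAAG on the other).
Sp5: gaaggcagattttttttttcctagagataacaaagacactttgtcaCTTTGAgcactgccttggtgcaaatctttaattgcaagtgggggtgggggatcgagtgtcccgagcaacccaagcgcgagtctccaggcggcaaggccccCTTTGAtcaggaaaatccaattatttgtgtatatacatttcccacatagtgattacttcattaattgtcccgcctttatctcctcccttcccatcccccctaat
Axin2: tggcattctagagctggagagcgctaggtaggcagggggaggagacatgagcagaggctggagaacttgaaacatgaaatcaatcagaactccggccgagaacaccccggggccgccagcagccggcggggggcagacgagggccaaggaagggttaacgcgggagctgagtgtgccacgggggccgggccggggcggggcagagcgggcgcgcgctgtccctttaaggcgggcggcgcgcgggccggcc
*Sp5* held 2 matches and *Axin2* held 0 in this window. Of the 12 WNT response genes, 9 had promoters that were searched, 14 in all, and 2 genes held a match, *Sp5* and *Lef1*. The search of listed genes left a chromosome out, whereas the share over all promoters was counted without that exclusion. Counted by promoter, 2 of the 14 held a match, near the share over all promoters. Of all 32851 promoters of the same length, 4544 held one (13.8%). A match of these letters is a description of the window and not a measured binding site.

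Ligands, receptors and secreted modulators of the pathway did not move together, in counts to be read beside 3.94% higher and 7.32% lower of all tested genes. Of 7 WNT ligands tested, *Wnt4* was higher and *Wnt5b*, at 16 against 32.3 CPM (0.496), lower. *Wnt5a*, a ligand of the β-catenin-independent branch, was at 144 against 170 CPM (0.846), and *Wnt11* at 143 against 80.4 CPM (1.78). Of 13 receptors tested, 0 were higher and 4 lower, *Fzd1*, *Fzd4*, *Fzd8* and *Lgr4*. *Fzd8* was at 4.31 against 65.3 CPM (0.0660), and *Fzd2* at a ratio of 0.966. Of 11 modulators, 3 were higher and 5 lower. The secreted inhibitors *Dkk2*, at 15.4 against 185 CPM, and *Sfrp2*, at 68.3 against 494 CPM, were 12-fold and 7.22-fold lower in the 123 cells, and *Sfrp1* was 5.55-fold lower. The R-spondin *Rspo1*, which amplifies WNT signals, was at 49.9 against 12 CPM (4.17), but 78 of its 81 UMIs came from the group of 23 cells described below, and the other 100 cells were at 2.4 CPM, under tendon. The WNT-inactivating enzyme *Notum* and the DKK receptor *Kremen1* had ratios of 4.99 and 4.88. With the 34 cells kept in, *Rspo3* was also below 0.5 (0.466), against 0.644 without them.

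The Iroquois genes, homeobox factors that act in patterning, were all 5 higher of the 5 tested in the 123 cells, with a median ratio of 11.3, beside 3.94% of all tested genes. *Irx1* was at 519 CPM against 33.4 CPM in tendon (15.5, 13.7–17.7), and *Irx2*, *Irx3*, *Irx5* and *Irx6* had ratios of 14.3, 9.91, 6.89 and 11.3. *Irx1* was detected in 72.7% of the 123 cells after thinning, in 5.75% of tendon cells and in 0% of erythroid cells. Against the highest other tail cluster *Irx3* was 4.92-fold and *Irx1* 4.58-fold higher. Against all other tail cells 4 of 5 tested members were at least 2-fold higher and *Irx6* was not, beside 5.59% of all tested genes. *Irx4* was not tested. Over all 157 cells 4 of 4 tested members were higher, with a median of 8.63, beside 7.85%.

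Transcription factors of mesenchyme fell to both sides. Of 24 tested, 7 were at least 2-fold higher and 8 lower in the 123 cells, beside 3.94% and 7.32% of all tested genes. With the 34 cells kept in, 4 were higher and 8 lower, beside 7.85% and 8.14% of all tested genes. *Bcl11b*, a zinc-finger repressor, was at 605 against 51.6 CPM (11.7), and *Zeb2*, a repressor linked to mesenchymal state, at 774 against 202 CPM (3.83). *Zeb2* was nearly as high in the 34 immune cells, at 716 CPM. *Prrx2* was at 384 against 167 CPM (2.29; 1.65 over all 157 cells), whereas its relative *Prrx1*, expressed throughout limb and body wall mesenchyme, was at 695 against 585 CPM (1.19). The factors *Ebf1*, *Ebf2* and *Ebf3* were lower, with *Ebf2* at 3.69 against 147 CPM (0.0252). *Foxd1* was at 1.85 against 94.9 CPM (0.0195, 0.00401–0.0570), *Osr1* at 49.3 against 138 CPM and *Osr2* at 49.9 against 154 CPM. *Osr1* was not below tendon in the group of 23 cells described below, at 146 CPM, against 19.4 CPM in the rest of the 123.

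The posterior *Hox* genes, which set position along the body axis, lay on both sides of tendon. Of 15 tested, 2 were higher and 5 lower in the 123 cells, beside 3.94% and 7.32% of all tested genes. The higher were *Hoxb13* (68.3 against 29.9 CPM), which was under 2-fold over all 157 cells (1.76), and *Hoxb9* (82.5 against 30.1 CPM). The lower were *Hoxc9* at 14.8 against 36.7 CPM (0.402), *Hoxd11* at 15.4 against 95.1 CPM (0.162), *Hoxd13* at 6.77 against 26.1 CPM (0.260), *Hoxd10* and *Hoxd12*. *Hoxc13* (1.18), *Hoxa13* (1.33) and *Hoxa10* (1.54) differed by less than 2-fold. *Hoxc13* was detected in 35.5% of the 123 cells and 27.3% of tendon cells after thinning.

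Tendon genes were low, as far as the library can show. *Scx* was at 19.7 CPM (13.5–27.8) in the 123 cells against 1472 CPM in tendon, 74.7-fold lower. After thinning it was detected in 4.96% of the 123 cells, against 36.4% of tendon cells and 3.2% of erythroid cells, so that the share in the 123 cells was close to background. Over all 157 cells *Scx* was at 90.1 CPM, most of it from the 2 cells named above. *Tnmd*, a membrane protein of mature tenocytes, was at 3.69 against 93.0 CPM (0.0397), and *Mkx* and *Thbs4* had 1 UMI each. The ScxGFP transgene had 0 UMIs in the 123 cells and 46.1 CPM in tendon, at least 25-fold lower by a floor of 3 counts. Of 6 tendon genes tested 5 were lower, beside 7.32% of all tested genes, and *Egr1*, an immediate early gene as well, was at 472 against 436 CPM. *C1qtnf3*, a secreted C1q-related protein, was 59.3-fold lower, and *Nefm*, a neurofilament subunit, had 0 UMIs against 102 CPM, at least 55.2-fold lower.

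The main fibrillar collagens were near tendon levels. *Col1a1* was at 4076 against 3185 CPM (1.28), *Col1a2* at 3086 against 2519 CPM (1.22) and *Col3a1* at 3338 against 3557 CPM (0.939). Over all 157 cells *Col1a1* was at 2870 CPM (0.901). Of 10 fibrillar and fibril-associated collagens tested, 0 were higher and 2 lower, the cartilage-associated *Col2a1* and *Col11a1*, beside 3.94% and 7.32% of all tested genes. Among the other collagens *Col7a1*, the anchoring fibril collagen of the dermal-epidermal junction, was at 78.2 against 8.20 CPM (9.54), and the transmembrane *Col23a1* at 362 against 104 CPM (3.49). *Col18a1*, a basement membrane collagen, had 2 UMIs (1.23 CPM) against 53.7 CPM.

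Other matrix genes lay on both sides of tendon, in counts to be read beside 3.94% higher and 7.32% lower of all tested genes. The proteoglycan *Lum* was at 1451 against 608 CPM (2.39) and *Dcn* at 2113 against 1499 CPM (1.41), while *Fmod* was at 18.5 against 41.7 CPM and *Aspn* 12.8-fold lower. Of 24 glycoprotein and elastic fibre genes 2 were higher and 7 lower, with *Fbln1* at 345 against 154 CPM (2.24) and *Postn*, a matricellular protein of tendon and periosteum, at 58.5 against 422 CPM (0.139). *Mmp11* was the 1 higher of 13 metalloproteinases and inhibitors tested, and *Adam12*, *Adamts1* and *Adamts5* were lower. In all 157 cells together, 10 of 24 glycoprotein genes and 5 of 13 metalloproteinase and inhibitor genes were lower, beside 8.14% of all tested genes. In each list 1 gene was higher, beside 7.85%.

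Genes of axon guidance and cell adhesion lay on both sides of tendon. Of 28 tested, 10 were at least 2-fold higher in the 123 cells and 5 lower, with a median ratio of 1.81, beside 3.94% and 7.32% of all tested genes. Over all 157 cells 7 were higher and 8 lower, beside 7.85% and 8.14%. *Nrp1*, a receptor for semaphorins and VEGF, was at 531 against 117 CPM (4.55), while its relative *Nrp2* was at 44.3 against 212 CPM (0.209). The laminin-binding integrin subunit *Itga6* was at 198 against 19 CPM (10.4), *Itga8* at 108 against 38.3 CPM (2.83), and *Vcam1* at 660 against 264 CPM (2.50). The repulsive ligands *Sema3a* and *Sema3c* were lower, with *Sema3c* at 1.23 against 59.4 CPM (0.0207, 0.00251–0.0753). The neurotrophin receptor *Ntrk2* had 0 UMIs, at least 37.5-fold lower than tendon.

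Genes of other signaling pathways lay on both sides of tendon, in counts to be read beside 3.94% higher and 7.32% lower of all tested genes. In the hedgehog list 0 of 9 were higher and 2 lower, and the pathway's targets *Ptch1*, at 35.1 against 99.4 CPM (0.353), and *Gli1*, at 3.08 against 17.8 CPM, were lower. Of 16 BMP genes, the antagonist *Grem1* was higher (2.53), with 46 of its 56 UMIs in the group of 23 cells and 8.1 CPM in the other 100 against 13.6 CPM in tendon. No BMP gene (0 of 16) was higher over all 157 cells. In the 123 cells *Bmp4*, at 11.1 against 65.7 CPM, *Bmp5*, *Chrd* and *Bmpr1b* were lower. *Fgfr1*, at 409 against 200 CPM (2.05), and *Dusp6*, a feedback phosphatase of FGF signaling (3.12), were higher with *Spry2*, and *Fgf9* and *Fgf18* were among 5 lower genes of 17. Of 13 retinoic acid genes *Crabp1*, an intracellular retinoic acid carrier, was higher, at 982 against 416 CPM (2.36), and *Stra6*, *Rdh10* and *Aldh1a2* were among the lower genes. Of 5 dermal condensate genes tested 0 were higher and 3 lower. With the 34 cells kept in, *Crabp1* (1.65), *Fgfr1* (1.56) and *Spry2* (1.49) were under 2-fold, so that 0 retinoic acid genes were higher. Of the FGF and PDGF genes 1 was then higher, *Dusp6*, and 7 lower. Over all 157 cells 7.85% of all tested genes were higher and 8.14% lower.

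The cell cycle genes *Mki67* and *Top2a* were higher in the immune cells than in the 123. In the 123 cells 0 of 13 proliferation genes were 2-fold higher or lower than in tendon, with a median of 1.15, beside 3.94% higher and 7.32% lower of all tested genes. Over all 157 cells 8 of 14 were higher, with a median of 2.21, beside 7.85%. *Mki67* was at 35.1 CPM in the 123 cells, 33.8 CPM in tendon and 293 CPM in the 34 cells. *Top2a* was at 15.4, 20.2 and 301 CPM in the same order. Against all other tail cells, which include the proliferating clusters, 10 of 15 were lower in the 123 cells, beside 8.73% of all tested genes. Of the lysosome genes 3 of 16 were higher than in tendon in the 123 cells, *Ctsk* and *Cpq* among them, beside 3.94%, and 8 of 17 over all 157 cells, beside 7.85%.

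The cells also differed among themselves. Leiden clustering of the 157 cells alone gave 5 groups, and none mixed the 123 with the 34. The 123 fell into groups of 51, 49 and 23 cells (32.5%, 31.2% and 14.6% of the cluster), with median depths of 13192, 11342 and 14539 UMIs. The 34 fell into groups of 26 and 8 cells. Genes that define a group are a description of it, since the groups were made from them. The values below compare each group of the 123 cells with the other 2, over 10299 to 10652 tested genes, of which 872 were higher and 694 lower in the first group, 517 and 878 in the second and 994 and 1213 in the third.

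Several matrix genes were highest in the group of 51 cells and others were lower there. Of 23 glycoprotein genes 8 were higher and 3 lower (*Fbln1*, *Vcan* and *Frem1*). Of 9 collagen VI, basement membrane and membrane collagen genes 1 was higher and 3 lower (*Col6a1*, *Col6a3* and *Col7a1*), and of 9 fibrillar and fibril-associated collagen genes 1 was higher and 0 lower. *Mgp*, a matrix protein that inhibits calcification, was at 477 CPM against 23.2 CPM in the other 72 cells (20.6, 13.3–33.3). *Efemp1*, a fibulin, was at 164 against 2.1 CPM (77.7, 21–650), and *Fabp7*, a fatty acid binding protein, at 118 against 3.2 CPM (37.3, 12.3–185). *Fabp7* did not pass the filter, so its UMIs came from under 10% of the 51 cells. *Col12a1*, a fibril-associated collagen, was at 832 against 158 CPM (5.26, 4.38–6.34), *Ogn* at 519 against 53.8 CPM (9.64) and the chemokine *Cxcl12* at 256 against 41.2 CPM (6.21). The ligand *Wnt2* was at 91.6 against 8.4 CPM (10.9). Of 11 WNT response genes tested 0 were higher and 3 lower, with *Sp5* at 10.3 against 143 CPM, and 5 of 13 proliferation genes were lower. Markers of other cells moved with this group. Of 4 tendon genes tested *Fmod* (9.10, 3.16–35.9) and *Kera* (8.05) were higher and *Scx* was lower, with a median of 4.46, and 4 of 4 cartilage genes were lower. The Schwann and neural crest genes *Fabp7* and *Sox10*, neither of which passed the filter, had 80 of 83 and 7 of 8 UMIs here. The melanoblast gene *Mitf* had 8 of 9 (11.2, 1.5–497). Their part in the other differences of this group was not tested.

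Some of the genes with high ratios over tendon were highest in the group of 49 cells and others were not. *Casz1* was at 510 against 114 CPM (4.47, 3.60–5.57), *Nrcam* at 279 against 59.4 CPM (4.70), *Mmp11* at 2586 against 987 CPM (2.62), *Tac1* at 1261 against 550 CPM (2.29) and *Calb1* at 460 against 157 CPM (2.94). *Nrgn* was at 144 against 118 CPM (1.22, 0.912–1.63) and was higher in the group of 23 (4.32), *Ass1* was at 144 against 64.1 CPM (2.24) and likewise higher in the group of 23 (2.43), and *Thy1* was at 32 against 97.1 CPM (0.329). *Wnt4* was at 1135 against 664 CPM (1.71). The WNT response genes *Nkd2* (210 against 81.1 CPM) and *Sp5* (156 against 51.8 CPM) were at least 2-fold higher, *Rnf43* rested on 5 against 3 UMIs (3.14, 0.611–20.2), and *Axin2* was at 259 against 160 CPM (1.62). Collagen *Col12a1* was at 87 against 626 CPM (0.139), 11 of 23 glycoprotein genes were lower and 1 higher, and 4 of 13 proliferation genes were higher. Markers of other cells moved with this group. Of 5 cartilage genes tested 4 were higher and 1 lower, with a median of 3.67, among them *Col9a3* at 87 against 6.6 CPM (13.2, 5.94–34.5) and *Sox9*, the cartilage transcription factor, at 32 against 9.4 CPM (3.39). The tendon factor *Scx* had 24 of its 32 UMIs here (5.65, 2.46–14.6) and the neuron gene *Stmn2* 19 of 22 (11.9, 3.51–63). *Stmn2* did not pass the filter, so its UMIs came from under 10% of the 49 cells. Their part in the other differences of this group was not tested.

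In the group of 23 cells 4 posterior *Hox* genes were near 0. *Hoxc13* was at 5.2 CPM (2 UMIs) against 250 CPM in the other 100 cells, a ratio of 0.0208 (0.00251–0.0758). *Hoxa13* and *Hoxb13* had 1 UMI each, ratios of 0.0329 (0.000825–0.188) and 0.0293 (0.000735–0.167), and *Hoxc12* had 2 UMIs (0.0566, 0.00677–0.209). *Hoxa10* was at 297 against 410 CPM (0.724) and *Hoxc10* at 109 against 51.6 CPM (2.12). Of 13 posterior *Hox* genes tested 6 were lower, *Hoxb9* at 28.6 against 99.2 CPM (0.288, 0.140–0.534) and *Hoxc11* (0.490) among them, and 2 higher. The cells were at 203 against 2.4 CPM for *Rspo1* (83.8, 27.6–415), 125 against 2.4 CPM for the T-box factor *Tbx15* (51.6, 16.6–259), 957 against 42.8 CPM for the proteoglycan *Vcan* (22.4, 16.8–30.5) and 172 against 8.1 CPM for *Sostdc1* (21.3), an inhibitor of BMP and WNT. *Mmp11* was at 164 against 1968 CPM (0.0832), and *Mgp*, with 2 UMIs, at a ratio of 0.0188 (0.00227–0.0684). The imprinted gene *Peg3* was at 2094 against 657 CPM (3.19) and *Dlk1* at 934 against 346 CPM (2.70). Several kinds of markers of other cells moved with this group. The endothelium gene *Egfl7* (2.53, 1.04–6.01) and 1 of 4 mural cell genes tested, *Acta2* (2.63, 1.43–4.79), were higher. The neuron gene *Map2* rested on 4 against 6 UMIs (2.15, 0.446–9.06). Of 4 cartilage genes tested *Matn4* was higher (11.6, 5.64–26.2) and 2 were lower, and of 4 tendon genes 3 were lower. The epidermis gene *Krt15* did not pass the filter, so its UMIs came from under 10% of the 23 cells. *Krt15* had 28 UMIs here and 0 in the other 100 cells, at least 30.1-fold higher, *Krt14* had 16 of its 20 UMIs (12.9, 4.16–53), and both epidermis genes that passed the filter, *Krt14* and *Krt1*, were higher. Of 5 dermal condensate genes tested *Sox18*, *Bmp4* and *Inhba*, the last at 138 against 15.3 CPM (8.99, 5.24–16.1), were higher and *Trps1* was lower. *Sox18* rested on 4 against 2 UMIs (6.45, 0.924–71.3). Their part in the other differences of this group was not tested.

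All 3 groups carried the markers of the cluster, at unequal levels. *Wnt4* was at 678, 1135 and 637 CPM in the groups of 51, 49 and 23 cells, *Twist2* at 616, 847 and 588 CPM, and *Cxcl14* at 2711, 1796 and 858 CPM. *Irx1* was at 373, 682 and 538 CPM and *Axin2* at 167, 259 and 148 CPM, above the tendon levels in each group. Over the 121 thinned cells, Spearman's rho between pairs of genes ranged from −0.40 for *Casz1* and *Egfl6* to 0.51 for *Tac1* and *Mmp11*. It was 0.20 for *Wnt4* and *Twist2*, 0.10 for *Twist2* and *Cxcl14*, 0.021 for *Wnt4* and *Cxcl14*, 0.063 for *Wnt4* and *Axin2* and 0.063 for *Axin2* and *Nkd1*. With the immune cells kept in, over 152 thinned cells, the same pairs were at 0.42, 0.41, 0.37, 0.20 and 0.15. These are descriptions over cells of 1 library in sparse counts.

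The groups of 26 and 8 cells differed in their immune genes. The group of 26, macrophage-like by the listed markers, held all 764 *C1qb* UMIs of the 34 cells (1451 CPM), with *Lyz2* at 3279 CPM and *Pf4* at 978 CPM. The group of 8 had 0 UMIs of *C1qb* and *Csf1r*. It held *Cpa3* at 10754 CPM (10374–11144) and *Cma1* at 7410 CPM (7095–7735), proteases known from mast cells, with *Gata2* at 921 CPM and *Tpsab1* at 843 CPM. No marker list had been set for it, so it is left unnamed. Its median depth was 36036 UMIs.

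**Figure D3:**
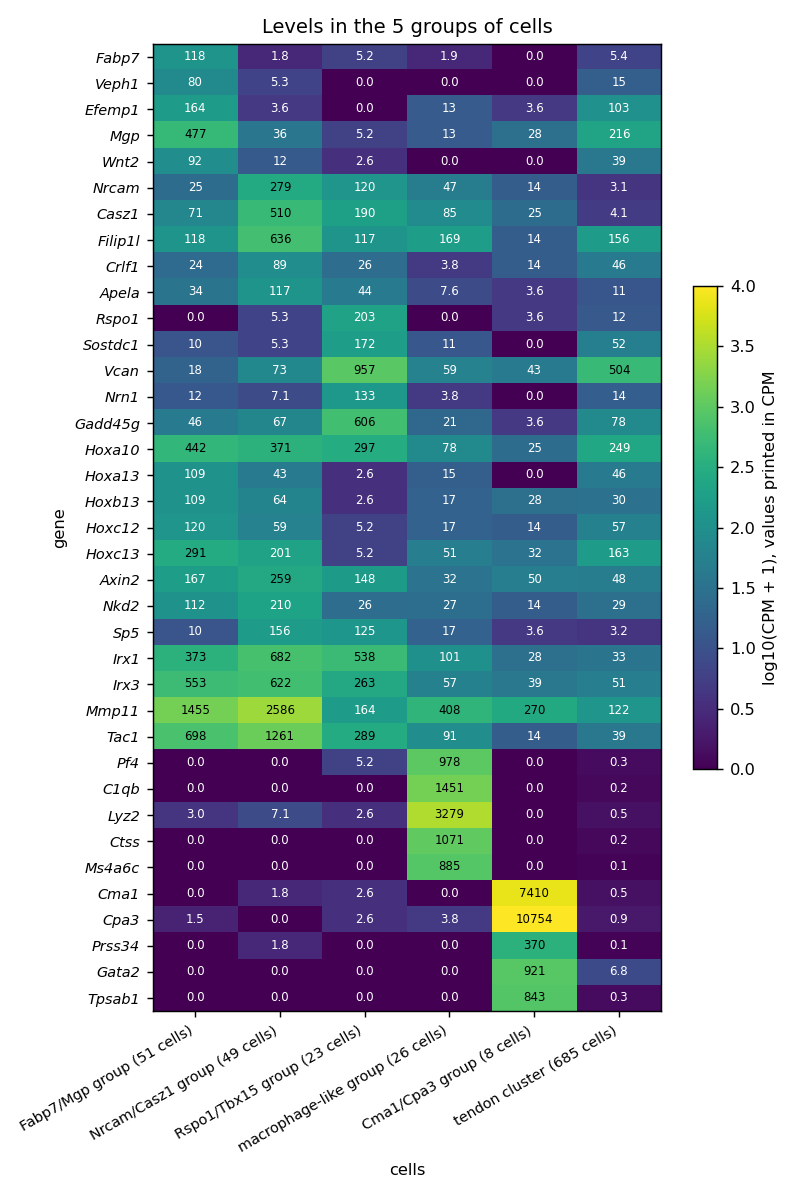
Levels in CPM, printed in each cell and coloured by log10 of CPM + 1, for genes on the y axis in the 5 groups of cluster 3 and in the tendon cluster on the x axis. The Rspo1/Tbx15 group of 23 cells has *Hoxa13*, *Hoxb13*, *Hoxc12* and *Hoxc13* at 2.6 to 5.2 CPM, and each immune gene at the bottom is above 10 CPM only in the group of 26 or of 8 cells.

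Position among neighbors was taken from 20 nearest cells of the tail in 30 principal components. Of the neighbors of the 157 cells, 90.6% were of the same cluster and 5.76% tendon cells. The 123 cells took 92.3% of their neighbors from each other, 6.99% from tendon and 0% from the 34. The 34 cells took 83.4% from each other, 7.94% from the low-UMI cluster (code 7) and 0.882% from the 123. Tendon cells made up 11.5% of the neighbors of the group of 51 cells, 10.4% for the group of 23 and 0.714% for the group of 49. The immune and the collagen-expressing cells were thus rarely neighbors of each other, although they share a code.

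The D10 culture held 53 cells under the same code, 0.678% of 7821 (0.508–0.885%). Of these, 5 (9.43%, 3.13–20.7%) had 2 or more macrophage UMIs, and the other 48 had a median depth of 7146 UMIs. The 2 libraries differ in origin, depth and handling, which cannot be told apart with 1 library each. Across all cells of the code, 3064 of 10758 tested genes were at least 2-fold higher in the tail (28.5%) and 1333 lower (12.4%). For the 123 against the 48 cells, 2979 of 10362 were higher (28.7%) and 1549 lower (14.9%). The median ratio was 1.31 and 1.29. Relative to the median, 2088 genes were higher and 1984 lower over all cells of the code.

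The cluster's markers were far lower in the culture cells, and *Wnt4* and *Cxcl14* were nearly absent. *Wnt4* was at 15.6 CPM (6 UMIs) in the 48 cells, 53.0-fold below the tail (24.3–145). *Cxcl14* was at 10.4 CPM (4 UMIs), 188-fold lower (73.3–690), and *Twist2* at 39.0 CPM, 17.7-fold lower. *Axin2* and *Nkd1* had 1 UMI each, and *Tac1* and *Sp5* had 0, at least 102-fold and 11.3-fold below the tail. Of all tested genes 28.7% were higher and 14.9% lower in the tail in this comparison. Of 11 WNT response genes tested 10 were higher in the tail and 1, *Ccnd1*, lower, at 203 against 793 CPM. Of 8 hedgehog genes 8 were higher in the tail, led by *Gas1*, a co-receptor (127-fold), and of 12 posterior *Hox* genes 9 were higher and 0 lower. *Hoxc13* had 1 UMI in the culture cells and *Hoxa10* was 36.8-fold lower there. *Irx1* was at 52.0 CPM in the culture, and the tail was 9.98-fold above it.

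Some matrix genes were at like levels, and other genes were far higher in the culture cells. *Col1a1* was at 2351 CPM in the culture, 1.73-fold below the tail, and *Crabp1* at 949 CPM (ratio 1.03). *Fn1*, fibronectin, was 11.8-fold higher in the culture. *Spp1*, the secreted phosphoprotein osteopontin, was at 14226 CPM in the 48 cells with 0 UMIs in the 123. *Cdkn2a*, a cell cycle inhibitor that accumulates in cultured cells, was at 1756 CPM against 1 UMI, and *Lgals3*, a galectin, at 1072 CPM against 1 UMI. Lysosome genes were higher in the culture for 14 of 16 members tested, beside 14.9% of all tested genes, with *Ctsb* at 1894 against 141 CPM and *Ctsd* at 1254 against 79.4 CPM. Whether the culture cells under this code are the same kind of cell as the tail cells was not tested.

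**Figure D4:**
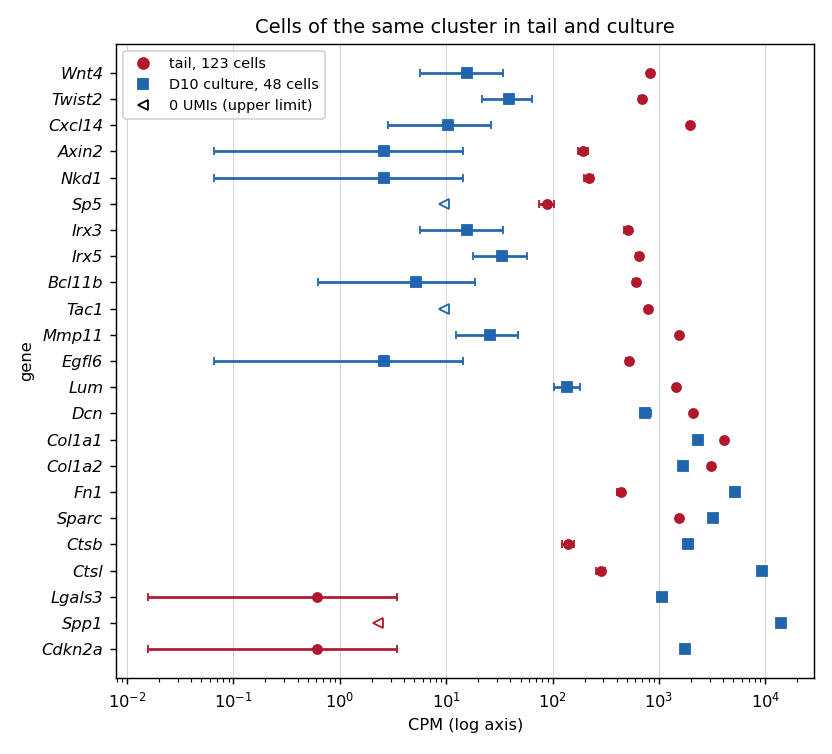
Levels in CPM on a log x axis, with exact Poisson intervals, of genes in the 123 tail cells (red circles) and the 48 culture cells (blue squares) of the same code, with triangles for the upper limit at 0 UMIs. The markers, *Axin2*, *Nkd1* and *Tac1* lie far lower in the culture, the collagen genes *Col1a1* and *Col1a2* lie close together, and *Spp1* lies at 14226 CPM in the culture with 0 UMIs in the tail cells.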

How the data were processed

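Single cells of the D10 culture (7821 cells) and the E14.5 tail (2052) were analysed, 1 library each, and D6 PM was used for its cell number and barcodes only. The deposited values are counts, whole UMIs per gene and cell of 27755 genes without normalization, which the authors made with Cell Ranger from 10x 3′ v3 libraries, ignoring multi-mapping reads, and filtered by removing cells above 7.5% mitochondrial transcripts and 2% of cells at each end of the distribution of transcripts. The authors' cluster code stands in the first row of each file; they clustered with Seurat 3.0 after integrating culture and tail. The genome reference of the counts is not given in the sources used here. Sharing of reads between near-identical genes was not examined.

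UMIs were summed per group with Python 3.11.15, NumPy 2.4.6, SciPy 1.17.1 and pandas 2.3.3 and divided by the UMIs of all genes. Cells with 2 or more macrophage-list UMIs were separated. Groups within the cluster used Scanpy 1.11.5 and leidenalg 0.10.2 (1000 variable genes, 10 components, 10 neighbors, resolution 0.5, seed 1), neighbors used 2000 variable genes and scikit-learn 1.9.0, doublet scores came from Scrublet (expected rate 6%) and no cell was removed for them, and figures used Matplotlib 3.10.9. The lists, the members and the rules were chosen with earlier results of these data known.

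Genes could be named if they were cluster markers or list members, among the 25 highest or 15 lowest ratios over tendon (at least 50 UMIs over both groups and 50 CPM in the higher), among the 15 highest over any other tail cluster, among 5 leading a group, or among the 8 highest and 8 lowest between tail and culture. The rule was applied to all 157 cells and, after the data were seen, also to the 123 cells, and not every gene it allows is printed. Some genes are not reported here. Alternatives varied the detection minimum (none, 25%), thinning, the mean over cells, the immune cells, the doublet calls and the settings of groups and neighbors.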

Additional observations from a re-analysis of the deposited data

How the results depend on the processing

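Of 80 alternatives to the results tabulated, 47 left a count within 1.5 times or a value within its counting interval, and 33 moved it further. A reversed direction could be recorded only for the ratios over tendon of *Wnt4*, *Twist2* and *Cxcl14*, the markers given for the cluster, and 0 of these reversed. The tally takes each count alone, so it does not show a change of balance or of a gene outside it. Without the 34 immune cells the split against all other cells went from 849 higher and 827 lower to 599 and 935, and the *Col1a1* ratio over tendon from 0.901 to 1.28. Ratios relative to their median took the split of tail against culture from 3064 and 1333 to 2088 and 1984. Leaving out the 34 immune cells took the genes higher than tendon from 871 to 419 and raised the ratios over tendon of *Wnt4* from 10.3 to 14, *Twist2* from 4.0 to 5.66 and *Cxcl14* from 3.07 to 4.42, and gave a share of 6.10% of the tail cells that remained. The mean over cells gave 12.3, 4.80 and 3.62, and thinning to 3000 UMIs 12.1, 5.23 and 3.59. Counts of genes followed the detection rule. Thinning gave 297 higher and 381 lower than tendon, 435 and 277 against all other cells, and 1597 and 1156 against culture. Without a minimum there were 3096 and 2379 against tendon and 5626 and 2724 against the others, and with a minimum of 25% 297 and 432, and 344 and 278. Thinning together with leaving out the immune cells, chosen after the data were seen, gave 251 and 363, and 440 and 294. Neighbors of the same cluster were 88.4% with 10 components and 89.0% with 1000 variable genes.

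The groups within the cluster numbered 5 at resolution 0.3, 7 at 0.8, 6 without cell cycle genes, 6 with 500 variable genes and 5 with scaled genes, and in each of these settings 0 groups mixed the 123 and the 34 cells. The 23 cells stayed in 1 group except with scaled genes (21 of 23). The adjusted Rand index with the groups described was 1, 0.711, 0.838, 0.559 and 0.618 in that order. Depth limits genes under about 1.85 CPM in the 123 cells, the value of 3 UMIs. No paired analysis was possible because each kind of sample has 1 library.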

Other observations

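Imprinted genes were lower in the 123 collagen-expressing cells than in tendon for 7 of 13 tested, with 0 higher and a median ratio of 0.485, beside 7.32% lower, 3.94% higher and a median of 0.970 for all tested genes. Over all 157 cells 8 of 13 were lower, beside 8.14% of all tested genes. *Plagl1*, a zinc-finger factor, was at 16 against 297 CPM (0.0539), *Dlk1* at 485 against 1209 CPM (0.401), *Igf2* at 49.9 against 124 CPM, *H19* at 506 against 1202 CPM (0.421) and *Mest* at 575 against 1208 CPM (0.476). The long noncoding RNA *Meg3* was at 2393 against 3444 CPM (0.695). Within the 123 cells 5 of 13 were higher in the group of 23 cells, beside 994 of 10652 tested genes, and 6 of 13 were lower in the group of 49, beside 878 of 10445.

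Among immediate early genes *Atf3*, a stress-induced factor, was at 8.62 CPM in the 123 cells, 21.1 CPM in tendon and 309 CPM in the 34 immune cells. The bone transcription factor *Runx2* was at 64.7 CPM in the 123 cells against 19.8 CPM in tendon (3.27, 2.56–4.17). *Crip1*, a small LIM-domain protein, was at 598 against 87.1 CPM (6.86).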
